A study of Rattus norvegicus with 9 samples.

Results

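Muscle miRNAs, grouped here under serum response factor (SRF) and its co-activator myocardin, were followed across 9 small RNA libraries. The libraries were of vascular smooth muscle cells from rat aorta, kept in culture. Whether SRF or myocardin drives each of these miRNAs in these cells was not tested. The members are both arms of miR-143 and miR-145, namely rno-miR-143-3p with rno-miR-143-5p and rno-miR-145-5p with rno-miR-145-3p, together with rno-miR-1-3p, rno-miR-133a-3p, rno-miR-133b-3p and rno-miR-206-3p. The prefix rno-, for rat, is left off where a name is repeated. They were chosen by name, and all 8 are rows of the deposited table of 762 mature rat miRNAs. Of the 8, 1 (miR-133b-3p) had a single count in the whole series, 1 more (miR-133a-3p) was below the filter for low counts, and 6 were tested. The 3 groups of 3 libraries were untreated differentiated cells, cells given 30 ng/ml PDGF-BB (the BB form of platelet-derived growth factor, which makes smooth muscle cells divide) for 24 h, and H3K4me2-edited cells. The edited cells carried a lentivirus expressing a sequence named Myocardin-F-LSD1, which joins the names of myocardin and of LSD1, a histone demethylase that acts on lysine 4 of histone H3. De-differentiated is the word the titles use for the latter 2 groups. A serum-free starvation of 24 h is in the protocol of every sample, and whether the edited and untreated cells went through it is not stated. No libraries of cells given a lentivirus without the construct were analysed here, and effects of the construct and of the transduction cannot be told apart.

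SRF binds CArG boxes in the DNA of contractile genes, and myocardin raises transcription there. In smooth muscle the pair also drives the gene that holds miR-143 and miR-145, which act against the transcription factors KLF4, KLF5 and ELK1 and so favour the contractile state. miR-1 and miR-133a are made from common transcripts in heart and skeletal muscle, where SRF also acts on them, and miR-206 and miR-133b form a related pair known from skeletal muscle. H3K4me2, dimethylation of lysine 4 of histone H3, marks contractile genes in smooth muscle cells.

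The mature sequences of all 8 members were found in RefSeq on the GRCr8 build of the rat genome, a later build than that of the counts. They are shown because the seed, bases 2 to 8 from the 5′ end and here in capitals, sets which transcripts a miRNA can pair with. Those of miR-143 and miR-145 come first.
miR-143-3p: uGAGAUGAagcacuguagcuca
miR-143-5p: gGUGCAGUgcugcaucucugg
miR-145-5p: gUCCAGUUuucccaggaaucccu
miR-145-3p: gGAUUCCUggaaauacuguuc
Each of these 4 seeds was found in no other miRNA of the table, among the 686 that had a sequence. The other 4 members fall into 2 seed groups, and miR-1b, which is not a member, shares the seed of miR-1-3p.
miR-1-3p: uGGAAUGUaaagaaguguguau
miR-206-3p: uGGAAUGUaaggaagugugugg
miR-1b: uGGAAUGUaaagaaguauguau
miR-133a-3p: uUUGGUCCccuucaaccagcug
miR-133b-3p: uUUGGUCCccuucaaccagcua
Counting positions from 1 at the 5′ end, miR-206-3p differed from miR-1-3p by A11G, A21G and U22G, and miR-1b differed from it by G17A. miR-133b-3p differed from miR-133a-3p by G22A, the last base. Reads of such close relatives may be split between them, and the rule by which the authors assigned them was not available for use here.

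The hairpins of miR-143 (chr18:57371349-57371453, minus strand) and miR-145 (chr18:57369983-57370070, minus strand) are 1278 bases apart on GRCr8. Both lie within the span of Carmn, a long non-coding RNA gene. They are shown with their mature arms in capitals, since the counts of the 2 arms of a hairpin are compared below.
Mir143: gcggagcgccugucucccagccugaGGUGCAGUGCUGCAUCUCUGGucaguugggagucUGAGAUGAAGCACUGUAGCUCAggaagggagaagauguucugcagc
Mir145: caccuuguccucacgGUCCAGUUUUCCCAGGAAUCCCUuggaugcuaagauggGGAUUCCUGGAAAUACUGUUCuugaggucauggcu
The hairpins of miR-1 and miR-133a are 2368 bases apart on the same chromosome, within the span of the gene Mib1 on its opposite strand, and those of miR-206 and miR-133b are 3801 bases apart on chromosome 9. Neighbouring hairpins can share a transcript, so the members of a pair are not independent of each other. The RefSeq window around the start of Carmn, 300 bases, held 0 exact CArG boxes on either strand, and of 33469 such windows in the genome 1.64% held at least 1. This says only that those letters are not in that window.

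Library totals ranged from 1783409 to 3850232 counts in differentiated and PDGF-BB cells and from 3149262 to 11392178 in edited cells. Levels are given as CPM, a counts-per-million value scaled by TMM factors. Changes are log2 fold changes ± SE from edgeR's quasi-likelihood test on all 304 miRNAs that passed the filter, with Benjamini-Hochberg adjusted p and a threshold of 0.05. No label states that replicates came from separate cultures, and the p-values therefore refer to a spread among libraries that may be technical. Some sets of marker miRNAs of other cells differed between the groups as well. The 2 arms of the endothelial miR-126a summed to 2905 to 3346 CPM in edited libraries, above 1760.0 to 2145 CPM in differentiated cells and 1791 to 1895 CPM after PDGF-BB. The 12 epithelial marker arms, 11 of them with a count, summed to 75.1 to 106 CPM in differentiated cells, 38.4 to 53.6 after PDGF-BB and 23.0 to 51.9 in edited cells. The 8 arms of blood cell markers, 6 of them with a count, summed to 25.9 to 35.7 CPM in differentiated cells, 21.4 to 29.9 after PDGF-BB and 18.0 to 25.2 in edited cells, where they were below every differentiated library. Their part in the results below was not tested.

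The miR-143 and miR-145 arms were high in differentiated cells, lower after PDGF-BB and lowest in edited cells. Together they made up 20.2%, 19.6% and 21.7% of all counts in differentiated replicates 1, 2 and 3. The share was 15.6%, 16.1% and 13.7% in the PDGF-BB libraries and 7.24%, 6.12% and 4.27% in the edited libraries. The 3 groups did not overlap in this share. In a bulk sample fewer cells that make these miRNAs and less of them per cell cannot be told apart. miR-143-3p alone held from 92.1% to 94.2% of the counts of the 4 arms in every library, so the share describes mostly that arm.

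rno-miR-143-3p, the main product of its hairpin, had 223989, 200857 and 235863 CPM in differentiated replicates 1, 2 and 3. It had 160482, 161328 and 125180 CPM in the PDGF-BB libraries and 59172, 43788 and 34170 CPM in the edited libraries. The 3 groups did not overlap. By count it held rank 1 in each differentiated library, rank 1 or 2 in each PDGF-BB library, and ranks 5, 6 and 8 in edited replicates 1, 2 and 3. rno-miR-143-5p, the arm of the same hairpin that is retained less, had 2607, 2510.4 and 3291 CPM in differentiated cells, 1899, 1991 and 1463 after PDGF-BB, and 614, 559.5 and 470.2 in edited cells. It showed the same order with no overlap between groups, at ranks from 43 to 82 of its library.

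rno-miR-145-5p, the main product of the other hairpin, had 11062, 10435 and 11058 CPM in differentiated replicates 1, 2 and 3. It had 8067, 7179 and 5957 CPM after PDGF-BB and 2980, 2848 and 2164 CPM in edited cells. Its differentiated libraries had a coefficient of variation of 3.33%, the lowest of the members, against 8.08% for miR-143-3p. rno-miR-145-3p had 1036, 1024 and 1159 CPM in differentiated cells, 712, 686 and 559 after PDGF-BB, and 347, 339 and 300.5 in edited cells. For both arms the 3 groups again did not overlap.

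**Figure D1:**
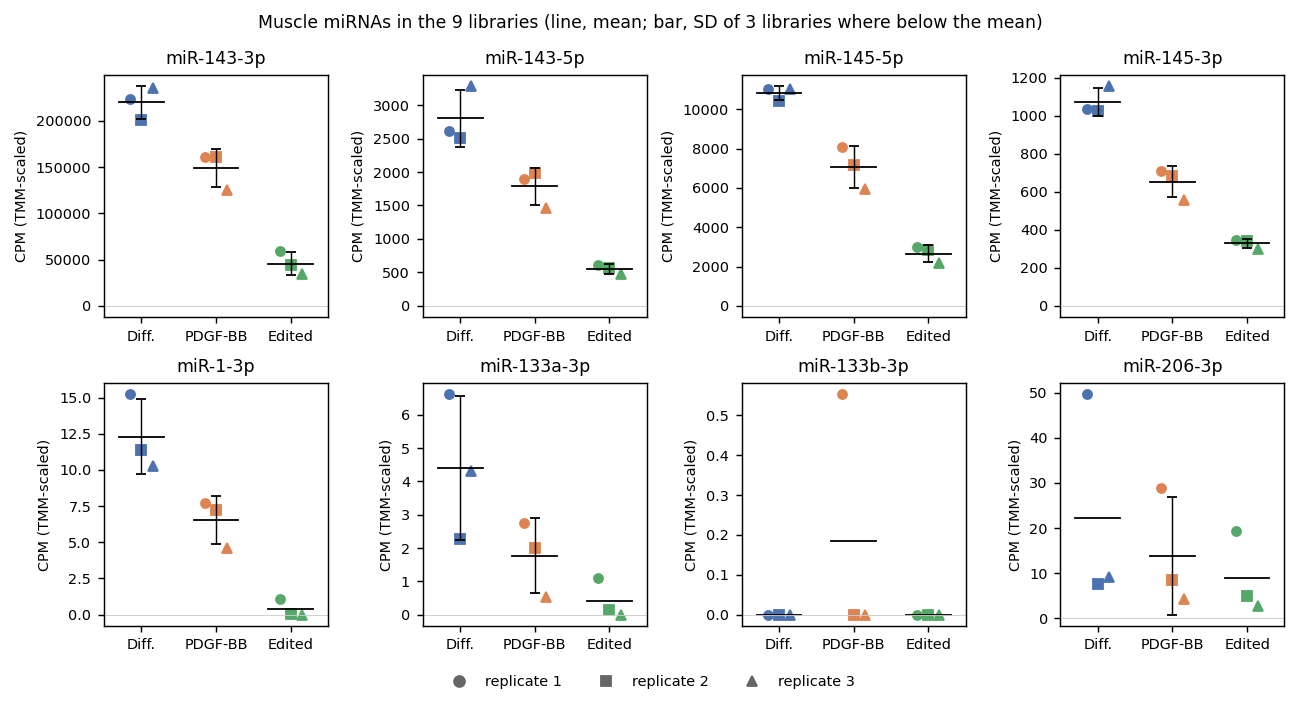
Level of each muscle miRNA (CPM, TMM-scaled, linear axes from 0) in the 3 libraries of each group, with the mean as a line and the SD as a bar where it is below the mean. For the 4 arms of miR-143 and miR-145 the groups do not overlap, and miR-206-3p is highest in replicate 1 of each group.

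The first comparison asks which muscle miRNAs differ after PDGF-BB. Of the 8 members, 3 fell, 0 rose, 3 were tested and did not pass and 2 were not tested. Over all miRNAs tested 2.96% were called lower in this comparison and 7.24% higher. miR-145-3p fell by 0.72 ± 0.12 on the log2 scale, to 60.8% of its differentiated mean (edgeR adjusted p = 0.00888). miR-143-5p fell to 63.6% and miR-145-5p to 65.1% of theirs, with edgeR adjusted p of 0.0319 and 0.0255. miR-143-3p, at 67.7% of its differentiated mean, had a log2 fold change of −0.56 ± 0.18 and did not pass (edgeR adjusted p = 0.0928). It passed with the DESeq2 test (adjusted p = 0.0220), without the filter (edgeR adjusted p = 0.0422) and with the 2 groups fitted alone (edgeR adjusted p = 0.00720). The means of the 4 arms lay between 60.8% and 67.7% of the differentiated mean, whether they passed or not. For 5 of the 8 members (the 4 arms and miR-1-3p) every PDGF-BB library was below every differentiated library, which was so for 17.1% of all miRNAs tested.

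These calls were lost in some, most or all of the fits that left out 1 compared library, while the log2 fold changes kept their sign. With 1 library left out they ranged from −0.79 to −0.62 for miR-145-3p, from −0.73 to −0.52 for miR-143-5p and from −0.73 to −0.51 for miR-145-5p. The call of miR-145-3p was lost without differentiated replicate 3 (edgeR adjusted p = 0.0522). That of miR-143-5p was lost whichever of the 6 compared libraries was left out (edgeR adjusted p from 0.0513 to 0.126). That of miR-145-5p was lost in each of these fits except the one without PDGF-BB replicate 1 (edgeR adjusted p from 0.0734 to 0.1). miR-143-3p passed without edited replicate 1 (edgeR adjusted p = 0.00634) or edited replicate 3 (edgeR adjusted p = 0.0367). Scaling by library totals in place of TMM factors moved the all-miRNA median by 0.13, and miR-143-5p (−0.52) and miR-145-5p (−0.49) no longer passed.

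The second comparison sets edited against differentiated cells, which are also the controls of the first. Of the 8 members 5 fell, 0 rose, 1 was tested and did not pass and 2 were not tested, where 27.0% of all miRNAs tested were called lower and 32.2% higher. miR-143-5p fell to 19.5% and miR-143-3p to 20.8% of the differentiated mean, with log2 fold changes of −2.36 ± 0.17 and −2.27 ± 0.19. miR-145-5p fell to 24.6% and miR-145-3p to 30.7%, with log2 fold changes of −2.03 ± 0.15 and −1.71 ± 0.12. The edgeR adjusted p was 9.1e-06 for miR-143-3p and 4.6e-06 for each of the other 3 arms. Ordered by p-value among the 304 miRNAs tested, miR-143-5p held rank 3, miR-145-5p rank 4 and miR-145-3p rank 6. For 5 tested members (the 4 arms and miR-1-3p) every edited library was below every differentiated library, as for 31.9% of all miRNAs tested. The same order held for miR-133a-3p, which was not tested and had 4, 2 and 0 counts in edited replicates 1, 2 and 3.

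The third comparison sets the 2 de-differentiated states against each other. Of the 8 members 5 were lower in edited than in PDGF-BB cells, 0 were higher, 1 was tested and did not pass and 2 were not tested, beside 30.9% of all miRNAs tested that were called lower and 28.0% higher. miR-143-3p and miR-143-5p were both lower by a log2 fold change of −1.70 (SE 0.19 and 0.16), at 30.7% of the PDGF-BB mean. miR-145-5p was at 37.7% and miR-145-3p at 50.4% of the PDGF-BB mean, with log2 fold changes of −1.41 ± 0.14 and −0.99 ± 0.12. The edgeR adjusted p ranged over the 4 arms from 2.7e-05 for miR-143-5p to 1.3e-04 for miR-145-3p. For 5 members (the 4 arms and miR-1-3p) every edited library was below every PDGF-BB library, as for 32.9% of all miRNAs tested. In both comparisons with edited cells the 4 arms and miR-1-3p passed under each of the 16 alternatives run. Library totals in place of TMM factors moved the median of all miRNAs by 0.45 against differentiated and by 0.32 against PDGF-BB cells, and the smallest fall of a miR-143 or miR-145 arm was then miR-145-3p, at −1.25 and −0.66.

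**Figure D2:**
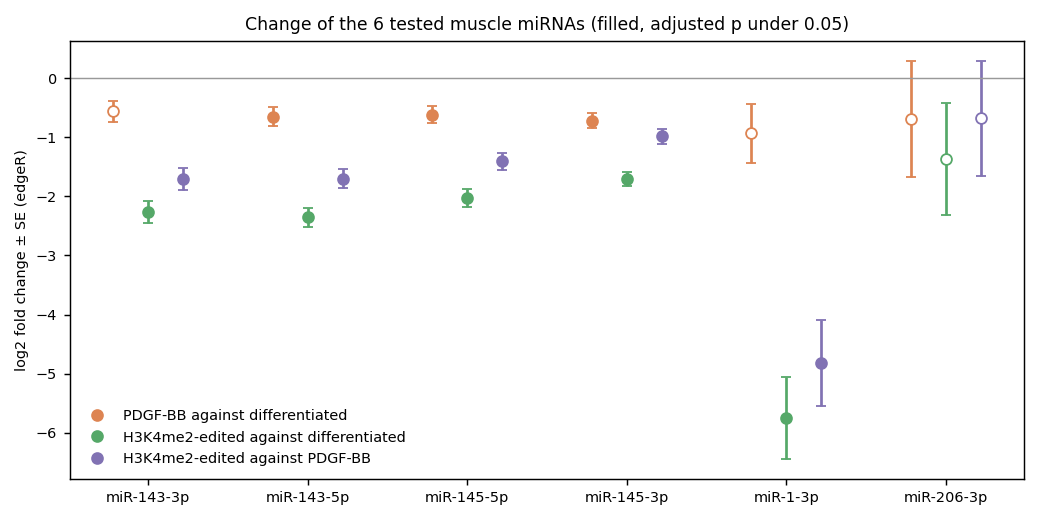
Log2 fold change ± SE (edgeR) of the 6 tested muscle miRNAs in the 3 comparisons, filled where the adjusted p is under 0.05. The miR-143 and miR-145 arms lie between −0.56 and −0.72 after PDGF-BB and between −1.71 and −2.36 in edited against differentiated cells, and miR-1-3p lies at −5.75 in the latter.

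In edited cells 2 of 4 ratios between the arms of these hairpins differed from the other groups. A ratio of 2 counts within 1 library does not depend on library size or scaling, and 4 such ratios were tested. The test was an exact permutation test over all ways to deal the 9 libraries to the 3 groups. The smallest p it can give is 0.00357, and p-values were adjusted over the 4 ratios. The 4 ratios share arms and any 1 of them follows from the rest, so they are not independent results. For 2 groups alone, 3 libraries against 3 cannot go below an exact two-sided p of 0.1.

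The ratio of miR-143-3p to miR-143-5p was 85.9, 80.0 and 71.7 in differentiated replicates 1, 2 and 3, 84.5, 81.0 and 85.6 after PDGF-BB and 96.4, 78.3 and 72.7 in edited cells. The groups overlapped (exact permutation p = 0.793), so no shift between the arms of miR-143 was detectable, with edited replicate 1 the highest and differentiated replicate 3 the lowest value. Between its lowest and highest library this ratio spanned 1.35-fold, while miR-143-3p itself spanned 6.90-fold in CPM.

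The ratio of miR-145-5p to miR-145-3p was 10.7, 10.2 and 9.54 in differentiated replicates 1, 2 and 3, and 11.3, 10.5 and 10.7 after PDGF-BB. It was 8.58, 8.39 and 7.20 in edited cells, below every library of the other groups. The ratio differed between the groups (exact permutation p = 0.0107, adjusted p = 0.0286). The means were 10.1 ± 0.572, 10.8 ± 0.449 and 8.06 ± 0.745 (SD, n = 3). On the log2 scale the edited mean was lower than the differentiated mean by a difference of −0.33, the 5p arm of miR-145 having lost more than its 3p arm.

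The 2 less retained arms, miR-143-5p and miR-145-3p, had the largest difference in ratio of the 4 pairs. Their ratio was 2.52, 2.45 and 2.84 in differentiated replicates 1, 2 and 3, 2.67, 2.90 and 2.62 after PDGF-BB and 1.77, 1.65 and 1.57 in edited cells. The edited libraries lay below all others, and the ratio differed between the groups (exact permutation p = 0.0143, adjusted p = 0.0286). The edited mean differed from the differentiated mean by −0.65 and from the PDGF-BB mean by −0.72 on the log2 scale.

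For the 2 main products no difference in proportion passed. The ratio of miR-143-3p to miR-145-5p was 20.2, 19.2 and 21.3 in differentiated replicates 1, 2 and 3, 19.9, 22.5 and 21.0 after PDGF-BB and 19.9, 15.4 and 15.8 in edited cells. Edited replicate 1 lay among the other groups, and the ratio did not pass (exact permutation p = 0.0714, adjusted p = 0.0952). Without edited replicate 1 it passed (exact permutation test, adjusted p = 0.0238). The calls of the other 2 ratios also rest on few libraries. The miR-145 arm ratio did not pass without differentiated replicate 2 (exact permutation test, adjusted p = 0.0571). The ratio of miR-143-5p to miR-145-3p did not pass without differentiated replicate 1 (0.05), differentiated replicate 2 or PDGF-BB replicate 2 (0.0571 each), although the edited minus differentiated difference stayed between −0.69 and −0.58 when any 1 library was left out. After PDGF-BB the 4 mean log2 ratios were above the differentiated means by 0.059 to 0.094, with exact permutation p from 0.3 to 0.5.

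**Figure D3:**
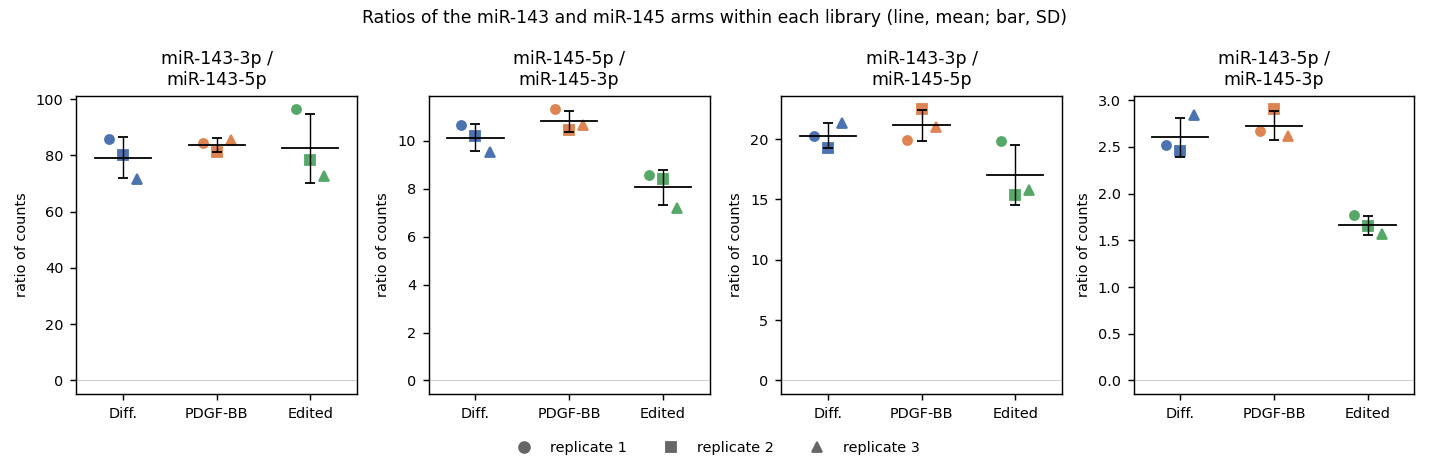
Ratio of the counts of 2 miR-143 or miR-145 arms within each library (linear axes from 0), with the mean of each group as a line and the SD as a bar. Edited libraries lie below all others for miR-145-5p over miR-145-3p (7.20 to 8.58) and for miR-143-5p over miR-145-3p (1.57 to 1.77), and overlap the other groups for the miR-143 arms.

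rno-miR-1-3p, which restrains growth programmes in heart and skeletal muscle, was scarce in these cells. It had 23, 40 and 19 counts in differentiated replicates 1, 2 and 3, 14, 18 and 17 after PDGF-BB and 4, 1 and 0 in edited cells. As CPM these are 15.2, 11.4 and 10.3, then 7.74, 7.25 and 4.63, then 1.11, 0.0682 and 0. The 3 groups did not overlap, although edited replicates 2 and 3 were the deepest libraries of the series, and the 0 in edited replicate 3 allows up to 0.354 CPM at a floor of 3 counts. Pooled over a group and without TMM scaling, the rate was 10.6 unscaled CPM in differentiated cells (exact Poisson 95% interval 8.39 to 13.1), 5.98 after PDGF-BB (4.42 to 7.90) and 0.228 in edited cells (0.0741 to 0.533). These intervals cover counting error only.

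The log2 fold change of miR-1-3p was −0.93 ± 0.50 after PDGF-BB and did not pass (edgeR adjusted p = 0.277; it passed without edited replicate 1, at 0.0488). It fell in edited cells, with log2 fold changes of −5.75 ± 0.69 against differentiated and −4.82 ± 0.73 against PDGF-BB cells (edgeR adjusted p = 1.4e-04 and 4.5e-04). With so few counts these fitted values moved with single libraries. They were −7.43 and −6.46 without edited replicate 1, and −4.91 and −3.95 without edited replicate 2. The pooled rate in edited cells was 0.0216 of that in differentiated cells, with an exact counting interval of 0.00684 to 0.0526. miR-1b, which differs from miR-1-3p at a single base, had 19, 21 and 14 counts over the differentiated, PDGF-BB and edited groups. Its pooled rate was 2.44 unscaled CPM in differentiated cells (exact counting interval 1.47 to 3.82). After PDGF-BB it was 2.56 (1.59 to 3.92), and in edited cells it was lower, at 0.639 (0.349 to 1.07). miR-1b was not tested.

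rno-miR-133a-3p, which is made with miR-1 and acts on SRF itself in heart and skeletal muscle, was rarer still. It had 10, 8 and 8 counts in differentiated replicates 1, 2 and 3, 5, 5 and 2 after PDGF-BB and 4, 2 and 0 in edited cells, and was below the filter. Every edited library was below every differentiated library in CPM (0 to 1.11 against 2.28 to 6.62), and PDGF-BB libraries (0.545 to 2.77) overlapped both. The pooled rate in edited cells was 0.0819 of that in differentiated cells, with an exact counting interval of 0.0276 to 0.203. Without the filter, its log2 fold change was −3.81 ± 0.82 in edited against differentiated cells (edgeR adjusted p = 0.00138), −2.46 ± 0.95 in edited against PDGF-BB cells (edgeR adjusted p = 0.0499) and −1.35 ± 0.75 after PDGF-BB (edgeR adjusted p = 0.372).

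rno-miR-133b-3p had 1 count, in PDGF-BB replicate 1, and 0 in the other 8 libraries. A count of 0 allows up to 0.386 unscaled CPM over the differentiated group and 0.137 over the edited group. No difference between groups was detectable at this depth.

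rno-miR-206-3p, a skeletal muscle miRNA with the seed of miR-1, was also scarce in these cells. It had 75, 27 and 17 counts in differentiated replicates 1, 2 and 3, 52, 21 and 16 after PDGF-BB and 70, 73 and 22 in edited cells. As CPM these are 49.6, 7.68 and 9.20, then 28.8, 8.46 and 4.36, then 19.4, 4.98 and 2.60. The library numbered 1 was the highest of its group in each group, from 4.49 to 5.88 times the mean of the other libraries, and the groups overlapped. That library was also the highest of each group for miR-1-3p and miR-133a-3p. At each replicate number the edited CPM of miR-206-3p was below the differentiated CPM, although the labels do not pair these numbers. Without a replicate block no comparison passed (log2 fold changes of −0.69 ± 0.98, −1.37 ± 0.95 and −0.68 ± 0.97, edgeR adjusted p from 0.235 to 0.701). With a replicate block, edited against differentiated cells passed (−1.22 ± 0.26, edgeR adjusted p = 0.00436). The sign turned without differentiated replicate 1 (0.64 after PDGF-BB and 0.019 in edited cells) and, for edited against PDGF-BB cells, without PDGF-BB replicate 1 (0.43). Without edited replicate 1 the edited cells were lower than the differentiated cells (−2.31 ± 0.86, edgeR adjusted p = 0.0338).

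Likeness of pattern was measured as the root mean square difference of log2 CPM over the 9 libraries, each miRNA centred at its own mean. The 2 arms of miR-143 differed by 0.124, those of miR-145 by 0.201, and miR-143-3p and miR-145-5p by 0.178. Outside the members, 132 miRNAs with a mean of at least 100 CPM were compared. Those closest to miR-143-3p were miR-384-5p (0.491), miR-1839-5p (0.523) and miR-3068-5p (0.533), and the same 3 were closest to miR-145-5p (0.393, 0.417 and 0.416). Each was further from either arm than those 2 arms were from each other. Their levels were far lower, and their log2 fold changes in edited against differentiated cells lay between −1.16 and −1.04. miR-384-5p had 73.1 ± 12.0 CPM in edited cells, against 164 ± 28.1 in differentiated cells and 161 ± 22.4 after PDGF-BB (SD, n = 3). These 9 libraries share 3 groups and their depths, and the likeness is a description with no test.

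**Figure D4:**
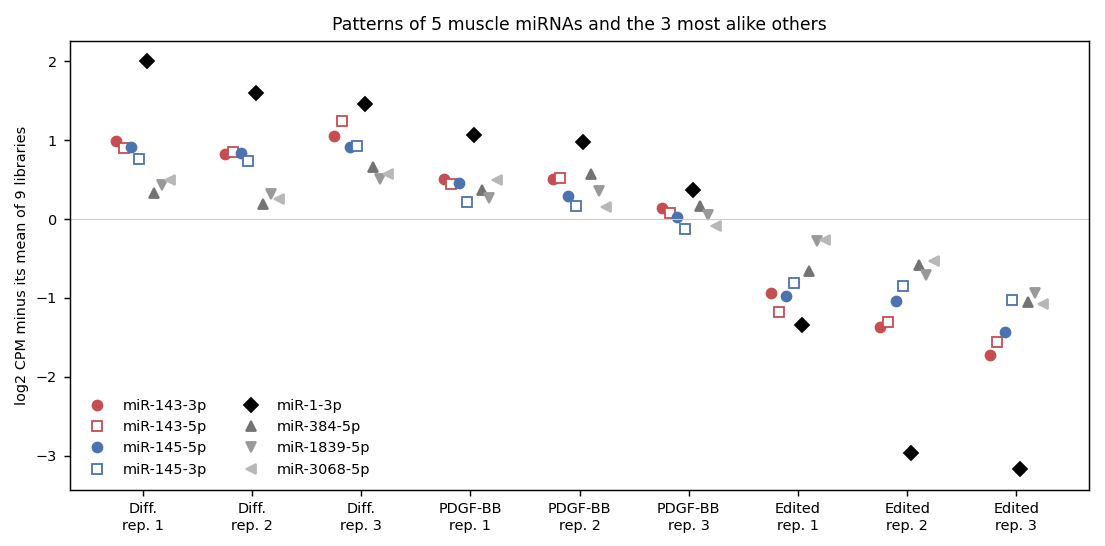
Log2 CPM of 5 muscle miRNAs and the 3 most alike other miRNAs, each centred at its mean of the 9 libraries, by library. The miR-143 and miR-145 arms are highest in differentiated and lowest in edited libraries. In edited replicate 3 they lie apart, from −1.73 for miR-143-3p to −1.02 for miR-145-3p. miR-1-3p spans the widest range, down to edited replicates 2 and 3.

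Other miRNAs of muscle were read from a fixed list of 18 arms, which holds both further arms of the members' hairpins and heart, skeletal and smooth muscle miRNAs. Of these 9 had a count and 3 were tested. The second arms of miR-1, miR-133a, miR-133b and miR-206 had 0 counts in all libraries, as had miR-490, known from smooth muscle. The heart miRNA miR-208a-3p had 3 counts in all. miR-499-5p, a miRNA from within a myosin gene, had 76.5 ± 18.1 CPM in edited cells, 67.9 ± 8.95 in differentiated cells and 48.0 ± 2.84 after PDGF-BB (SD, n = 3). It rose in edited against PDGF-BB cells (0.68 ± 0.18, edgeR adjusted p = 0.0105) and did not pass in the other comparisons. miR-378a-3p, from within a gene of energy metabolism, had 38.9 ± 9.04, 45.7 ± 10.8 and 38.0 ± 3.59 CPM in the same order and did not pass. By edgeR 0 of the 3 tested arms passed after PDGF-BB (1 at an unadjusted p under 0.05, and 1 lower by DESeq2). In edited against differentiated cells 0 passed (0 at an unadjusted p under 0.05, and 0 by DESeq2). In edited against PDGF-BB cells 1 rose. Over all miRNAs tested, 7.24% were called higher and 2.96% lower after PDGF-BB. In edited cells 32.2% were called higher and 27.0% lower against differentiated cells, and 28.0% higher and 30.9% lower against PDGF-BB cells. With 3 arms tested, these counts cannot be told from those shares. The median log2 fold changes of the 3 arms were −0.25, 0.17 and 0.44 in the 3 comparisons, beside 0.03, −0.0064 and −0.02 over all miRNAs tested.

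miRNAs linked elsewhere to the contractile state of smooth muscle were read from a list of 16 arms, of which 12 were tested. After PDGF-BB 0 passed by edgeR (3 at an unadjusted p under 0.05, and 2 higher and 1 lower by DESeq2). The median log2 fold change of the list was −0.13, beside 0.03 over all miRNAs tested, of which 7.24% were called higher and 2.96% lower. In edited against differentiated cells 7 rose and 3 fell, with a median log2 fold change of 0.53, beside 32.2% of all miRNAs tested called higher, 27.0% called lower and a median of −0.0064. Against PDGF-BB cells 6 rose and 4 fell, with a median of 0.76, beside 28.0% called higher, 30.9% called lower and a median of −0.02 over all. miR-204-5p rose from 207 ± 79.5 to 1150 ± 571 CPM in edited against differentiated cells (SD, n = 3; log2 fold change 2.48 ± 0.41, edgeR adjusted p = 7.6e-04). miR-204-3p, the other arm of that hairpin, rose by 2.75 ± 0.63 on the log2 scale from 1.01 ± 1.09 CPM. The abundant miR-10a-5p and miR-322-5p rose by 0.42 ± 0.10 and 1.20 ± 0.32 on that scale.

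Of 17 arms linked to the synthetic, proliferating state, 16 were tested. After PDGF-BB 5 rose and 1 fell, with a median log2 fold change of 0.36, beside 7.24% of all miRNAs tested called higher, 2.96% called lower and a median of 0.03. In edited cells 5 rose and 8 fell against differentiated cells, with a median of −0.35, and 5 rose and 10 fell against PDGF-BB cells, with a median of −0.60. Over all miRNAs tested, 32.2% were called higher and 27.0% lower against differentiated cells, and 28.0% higher and 30.9% lower against PDGF-BB cells. After PDGF-BB miR-222-5p rose by 2.45 ± 0.32 and miR-146b-3p by 1.51 ± 0.31 on the log2 scale. miR-146a-5p, which acts against NF-kappaB signalling, fell in edited against differentiated cells, with a log2 fold change of −3.81 ± 0.52. Of the abundant arms, miR-31a-5p had a log2 fold change of −0.47 ± 0.08 there. miR-21-5p fell from 139351 ± 15509 CPM to 79455 ± 17127 CPM (SD, n = 3), a log2 fold change of −0.81 ± 0.15.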

How the data were processed

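Libraries came from the QIAseq small RNA kit and were read from a single end (75 nt), per the labels' protocols. The files hold whole counts for each mature miRNA, deposited by the authors without normalization. The submitters' processing notes name the build Rnor_6.0. Which aligner and counter were used, and whether molecular identifiers were collapsed, could not be read from the labels or headers.

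Groups follow the titles. edgeR 4.0.16 (R 4.3.3) fitted a quasi-likelihood model to the 9 libraries, with TMM scaling and a filter set at a minimum of 10 counts. SE is the absolute log2 fold change over the square root of F. The labels do not pair equal replicate numbers, and 4 of 9 same-numbered pairs had correlated deviations (over 0.1), so the model has no block. No replicate repeated another (chi-square per degree of freedom 15.0 to 576). Arm ratios were tested by exact permutation. Scripts were tested on simulated data. Alternatives were DESeq2 1.42.0 as test or scaling, library totals, scaling without the members, no filter, 2 groups alone, a replicate block and each library left out. Intervals and floors cover counting error only.

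Named were all members, the 3 miRNAs most like miR-143-3p and miR-145-5p, miRNAs sharing a member's seed and, per list, the 2 arms that passed with the largest change and the 2 most abundant. Members and lists were chosen with earlier results of these data known. The contractile list holds miR-10a, miR-18a, miR-22, miR-124, miR-195, miR-204, miR-365 and miR-322, and the synthetic list miR-21, miR-31a, miR-221, miR-222, miR-24, miR-26a, miR-146a and miR-146b.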

Additional observations from a re-analysis of the deposited data

How the results depend on the processing

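In both comparisons with edited cells the 4 arms of miR-143 and miR-145 and miR-1-3p passed under all 16 alternatives, and 1 or 2 further members passed under some. After PDGF-BB the number of members called lower was 3. It was 1 with library totals, 4 with the DESeq2 test, no filter or 2 groups alone, and 0 to 5 when each library was left out in turn. Calls over all miRNAs, in either direction, also moved. They were 31 in the main fit, 26 with library totals, 48 with the DESeq2 test, 27 with no filter and 42 with 2 groups alone. Over the libraries left out they ranged from 3 (without differentiated replicate 3, 0 members) to 53 (without edited replicate 1, 5 members). For the ratios, the difference of the edited and differentiated log2 means was recomputed. With a replicate block the miR-145 arm ratio (−0.33, exact permutation test, adjusted p = 0.111) and the ratio of miR-143-5p to miR-145-3p (−0.65, adjusted p = 0.167) no longer passed, with differences as in the fit without the block. Deals within blocks cannot give an unadjusted exact p below 0.0278, which is the value of the miR-145 arm ratio, so its lost call reflects the size of the test. The other ratio had an unadjusted exact p of 0.0833. With each library left out in turn the difference was −0.067 to 0.14 for the miR-143 arms, −0.38 to −0.26 for the miR-145 arms, −0.38 to −0.19 for miR-143-3p over miR-145-5p and −0.69 to −0.58 for miR-143-5p over miR-145-3p. With the replicate block miR-206-3p passed in edited against differentiated cells (−1.22, edgeR adjusted p = 0.00436), and no other call of a member changed. Over the libraries left out, miR-206-3p ranged from −1.77 to 0.64 after PDGF-BB, from −2.31 to 0.019 in edited against differentiated cells and from −1.59 to 0.43 in edited against PDGF-BB cells. Library totals turned the calls over all miRNAs from 22 higher and 9 lower to 24 and 2 after PDGF-BB, from 98 and 82 to 151 and 40 in edited against differentiated cells, and from 85 and 94 to 124 and 52 in edited against PDGF-BB cells. Depth limits what can be said of miR-133b-3p, miR-133a-3p and miR-1-3p.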
